A study of Homo sapiens with 3 samples.

Results

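The small heat shock protein family was followed as every probe set annotated to HSPB1, HSPB2, HSPB3, CRYAA, CRYAB, HSPB6, HSPB7, HSPB8 or HSPB9 and to no other gene. This rule gave 12 probe sets for 9 genes, out of 41097 probe sets with 1 gene symbol for 19775 genes. Of the 9 genes, 6 had 1 probe set and 3 (HSPB6, HSPB7 and HSPB8) had 2. RNA came from the human hepatoma line HepG2, per the labels, grown in DMEM with fetal bovine serum. The cells were stably transfected with 1 of 3 vectors: Hsp27 ORF, Hsp27 shRNA or control. Hsp27 is the protein of HSPB1. The sample titles carry IRES2-HSP27 for the ORF array, HSP27-SiRNA for the shRNA array and EGFP-NC for the control array. Whether a line was 1 clone or a pool is not given in the sources used here. Each group had 1 array, so no difference below has a replicate check, and all of them describe these 3 arrays and not the conditions.

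Small heat shock proteins share an alpha-crystallin domain, assemble into oligomers and bind unfolding proteins without using ATP, holding them for refolding by HSP70-type chaperones or for degradation. HSPB1, CRYAB and HSPB8 are found in many tissues. HSPB2, HSPB3, HSPB6 and HSPB7 are known mainly from muscle, CRYAA from the eye lens and HSPB9 from the testis. HSPB1 is phosphorylated by the kinase MAPKAPK2, downstream of p38, which breaks its large oligomers into smaller ones.

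The promoters of HSPB1, HSPB3 and HSPB8 are shown because these were the members whose mean signal reached the 75th percentile of all probe sets; heat shock factors are known to bind inverted GAA units. Each sequence runs from 250 bases before to 50 bases after the annotated start, with matches to GAANNTTC, TTCNNGAA or TATAAA in capitals (RefSeq, GRCh38.p14, all on the plus strand).
HSPB1, chr7:76302423-76302722: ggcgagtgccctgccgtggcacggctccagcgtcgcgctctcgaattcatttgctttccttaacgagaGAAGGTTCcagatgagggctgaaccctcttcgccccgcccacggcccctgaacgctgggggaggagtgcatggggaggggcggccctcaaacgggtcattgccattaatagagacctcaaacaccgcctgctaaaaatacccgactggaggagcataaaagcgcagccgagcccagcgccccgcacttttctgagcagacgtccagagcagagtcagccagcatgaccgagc
HSPB3, chr5:54455449-54455748: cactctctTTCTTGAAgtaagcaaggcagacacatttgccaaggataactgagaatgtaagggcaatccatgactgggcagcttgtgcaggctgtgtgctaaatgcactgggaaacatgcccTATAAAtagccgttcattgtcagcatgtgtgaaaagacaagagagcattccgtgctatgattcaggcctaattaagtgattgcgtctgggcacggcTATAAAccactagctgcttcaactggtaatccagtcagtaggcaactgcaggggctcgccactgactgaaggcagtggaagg
HSPB8, chr12:119178681-119178980: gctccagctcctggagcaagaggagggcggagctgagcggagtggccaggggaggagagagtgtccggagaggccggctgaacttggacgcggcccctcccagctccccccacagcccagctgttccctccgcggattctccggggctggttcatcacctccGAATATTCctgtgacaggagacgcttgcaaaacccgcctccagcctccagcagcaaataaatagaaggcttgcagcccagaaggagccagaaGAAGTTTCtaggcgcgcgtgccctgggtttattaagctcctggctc
GAANNTTC and TTCNNGAA read the same on both strands, and TATAAA was searched on both. HSPB1 held 1 GAANNTTC, beginning 182 bases before the start. HSPB8 held 2, 1 beginning 88 bases before the start and 1 just after it. HSPB3 held 1 TTCNNGAA, 242 bases before the start, and 2 copies of TATAAA, at 128 and 32 bases before it. Of 35116 promoters of the same length, 13.5% held GAANNTTC or TTCNNGAA and 11.5% held TATAAA. RefSeq promoters matched 7 of the 9 members, and the others were CRYAB and HSPB2. Of the 7, 4 held GAANNTTC or TTCNNGAA: the 3 shown and HSPB6, which held 1 of each. CRYAA (2 annotated starts), HSPB7 and HSPB9 held none. A match of letters is a description and not a site of binding.

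Levels are given as log2 signals as deposited. As marks of level, the median of all probe sets on all arrays was 5.93 (a linear signal of 60.8) and the 75th percentile was 8.63 (a linear signal of 396.6). The median is called the floor, and signals below it were set to it before ratios were taken. Of the 12 member probe sets, 5 were at or above the floor on all arrays, 1 (CRYAB) on some arrays, and 6 on none. Only the probe set of HSPB1 and 1 of HSPB8 were at or above the 75th percentile on all 3 arrays. Probes differ in brightness, so a level is compared between arrays and not between genes.

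**Figure D1:**
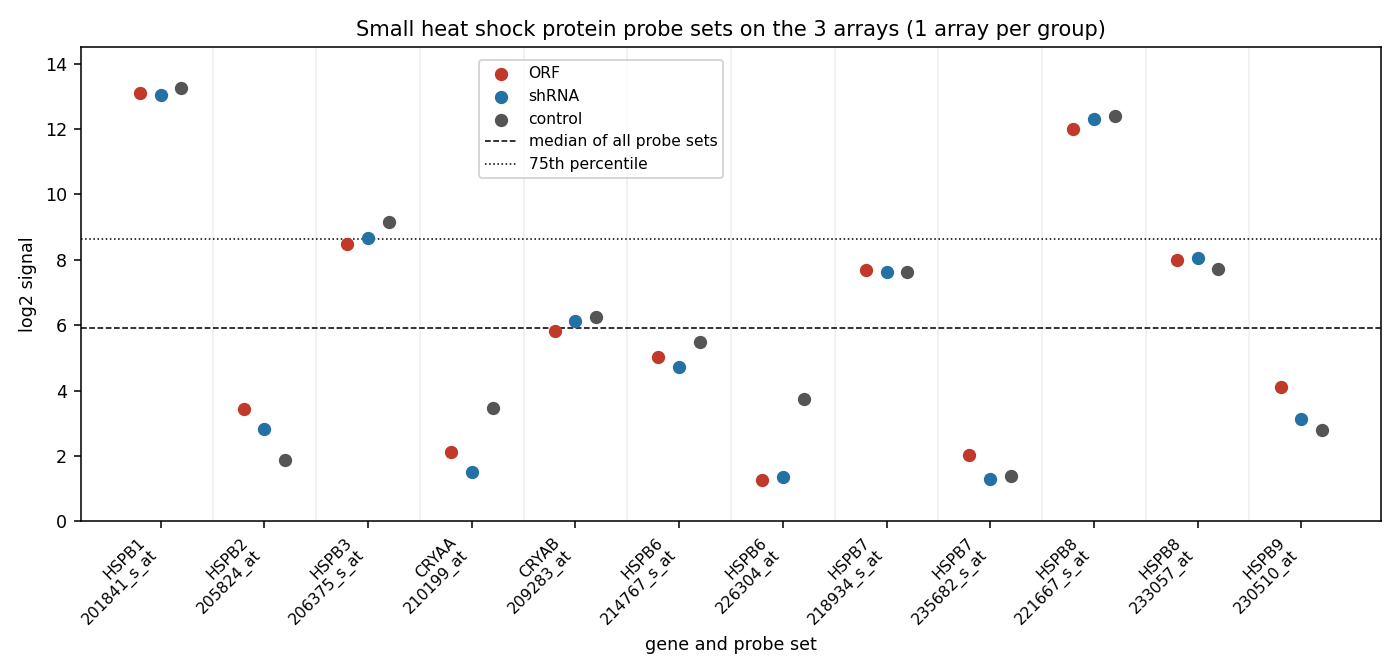
Log2 signal (vertical axis) of each of the 12 member probe sets (horizontal axis) on the ORF-labelled array, the shRNA-labelled array and the control-labelled array, 1 point per array. The dashed line marks the median of all probe sets (5.93) and the dotted line their 75th percentile (8.63); HSPB1 and the upper HSPB8 probe set lie far above both lines on every array, and 6 probe sets lie below the dashed line on every array.

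HSPB1, the target of the vectors, was read by probe set 201841_s_at. Its log2 signal was 13.11 on the ORF-labelled array, 13.03 on the shRNA-labelled array and 13.25 on the control-labelled array. The control array was thus the highest, and the ORF-labelled array was not above it. The log2 ratio of ORF to control was -0.14, against a noise SD of 0.080. This noise SD comes from probe sets that read 1 gene at like signals. It covers probe and hybridisation noise that differs between probe sets of 1 gene. Variation between cultures is left out, as is any technical shift that those probe sets share. The ratio of shRNA to control was -0.22 (noise SD 0.117), a signal 1.16-fold lower, and that of ORF to shRNA was 0.08 (noise SD 0.077). Differences of this size were common at this brightness: of 411 other probe sets with a mean signal within 0.25 of HSPB1, 25.8% differed at least as far for ORF against control, 15.3% for shRNA against control and 48.2% for ORF against shRNA. The like-signal probe sets had median ratios of -0.03 for ORF and -0.02 for shRNA to control, so HSPB1 stood 0.11 and 0.19 below them. The labels of the vectors are therefore taken as names of arrays here, and every direction rests on them. RefSeq lists the pseudogenes HSPB1P1 and HSPB1P2. Whether this probe set also reads them, and which part of the HSPB1 transcript it reads, was not tested.

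HSPB8, which works with the co-chaperone BAG3 in sending misfolded proteins to autophagy, was the member with the largest difference in units of noise. Probe set 221667_s_at read 12.01 on the ORF-labelled array, 12.30 on the shRNA-labelled array and 12.41 on the control-labelled array. The ORF-labelled array stood below both others, which lay close together. ORF was 1.32-fold lower than control (log2 ratio -0.40, noise SD 0.099) and 1.23-fold lower than shRNA (log2 ratio -0.29, noise SD 0.116). Among 706 probe sets of like signal, 2.69% differed at least as far between ORF and control and 6.09% between ORF and shRNA. The ratio of shRNA to control, -0.11, was inside its noise SD of 0.139. None of these reached 1.5-fold.

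The other HSPB8 probe set did not share this order. Probe set 233057_at read 7.999 on the ORF-labelled array, 8.05 on the shRNA-labelled array and 7.73 on the control-labelled array. Against control, ORF had a ratio of 0.27 and shRNA one of 0.32, each under its noise SD of 0.281 and 0.333. The log2 ratios of the 2 probe sets differed by 0.67 for ORF against control. In 7454 pairs of probe sets of other genes with 1 at or above and 1 below the 75th percentile, 44.6% had ratios of opposite sign for that comparison, and 9.61% differed by at least as much. The difference of HSPB8 thus rests on 1 of its 2 probe sets.

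HSPB3, a muscle member that pairs with HSPB2, was the only member past 1.5-fold in any comparison. Probe set 206375_s_at read 8.47 on the ORF-labelled array, 8.67 on the shRNA-labelled array and 9.15 on the control-labelled array. In linear signals these were 354.7, 406.6 and 569.5. The control-labelled array was above both others. ORF was 1.61-fold lower than control (log2 ratio -0.68, noise SD 0.227), a step found among 2.56% of 1877 probe sets of like signal. The shRNA array was 1.40-fold lower than control (log2 ratio -0.49, noise SD 0.278), and 9.59% of like probe sets differed at least as far. The log2 ratio of ORF to shRNA was -0.20, smaller than the noise SD of 0.233. HSPB3 had no second probe set to set beside this one, and whether this one also reads other transcripts was not tested. Its call is lost with the floor at the 75th percentile, where the log2 ratio of ORF to control was -0.52.

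With 1 of 12 member probe sets at least 1.5-fold lower for ORF against control and 0 higher, the family is set beside 3.14% of 23721 probe sets above the floor that were lower and 3.73% that were higher. Of the 12, 6 were above the floor in each of the 3 comparisons. The other 6 were below it on every array, so their ratios were 0 and they could not be called. For shRNA against control 0 of 12 were past 1.5-fold in either direction, where 3.64% of 23816 probe sets were lower and 4.51% higher. For ORF against shRNA it was again 0 of 12, where 3.23% of 23775 were lower and 3.2% higher. The median log2 ratio over all 12 was 0 in each comparison, as it was over all probe sets with 1 symbol, because signals below the floor have a ratio of 0. Over the 6 above the floor, which belong to 5 genes, it was -0.23, -0.12 and -0.12 in that order of comparisons. Over all probe sets above the floor it was 0.007, 0.001 and 0.008. Of the 6 member probe sets above the floor on any array, 4 read highest on the control array, 1 on ORF and 1 on shRNA. Over all such probe sets the control array was highest in 34%. Both comparisons with control use the same control array and are not independent.

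**Figure D2:**
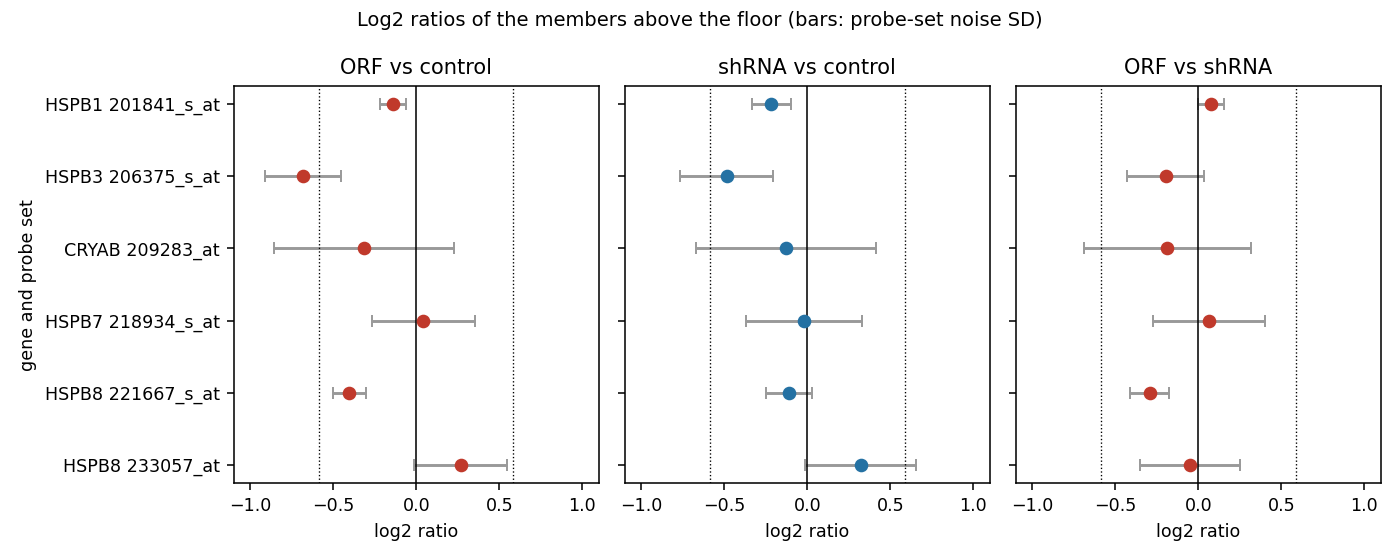
Log2 ratio (horizontal axis) of the 6 member probe sets above the floor (rows) in the 3 comparisons, 1 panel each. Bars show 1 probe-set noise SD to each side and dotted lines mark 1.5-fold; HSPB3 lies beyond the line only for ORF against control (-0.68), and the 2 HSPB8 probe sets lie on opposite sides of 0 against control.

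CRYAB, the widely found alpha B-crystallin that assembles with HSPB1, was near the floor. Its probe set read 5.83 on the ORF-labelled array, 6.11 on the shRNA-labelled array and 6.24 on the control-labelled array. The ORF signal was below the floor of 5.93, so its log2 ratio to control was -0.32 with the floor and -0.41 without it, against a noise SD of 0.544. The ratio of shRNA to control was -0.13 (noise SD 0.542) and that of ORF to shRNA -0.19 (noise SD 0.503). All 3 differences of CRYAB lay within the noise SD, so no difference was detectable at this signal. CRYAB lies on chromosome 11, where the annotated span of HSPB2 falls inside its own.

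HSPB7, known from heart muscle, differed least of the members above the floor. Probe set 218934_s_at read 7.68 on the ORF-labelled array, 7.61 on the shRNA-labelled array and 7.63 on the control-labelled array. The 3 signals spanned 0.06 on the log2 scale, and the noise SDs were 0.311, 0.347 and 0.336. The other HSPB7 probe set, 235682_s_at, read 2.04, 1.30 and 1.40 in the same order of arrays, below the floor.

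The muscle members HSPB2 and HSPB6 were below the floor on each array. HSPB2, also known as the myotonic dystrophy kinase binding protein, read 3.44 on the ORF-labelled array, 2.83 on the shRNA-labelled array and 1.89 on the control-labelled array. HSPB6 (Hsp20, which is linked to relaxation of smooth muscle) read 5.04, 4.72 and 5.47 in the same order with probe set 214767_s_at, and 1.26, 1.36 and 3.74 with 226304_at. At these signals the arrays cannot be ordered, and no ratio is given. A further probe set shared by HSPB2, C11orf52 and their read-through gene does not meet the rule. It read 4.08, 2.10 and 4.78 in the same order, also below the floor.

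CRYAA and HSPB9 were below the floor as well. CRYAA, the lens alpha A-crystallin, read 2.11 on the ORF-labelled array, 1.497 on the shRNA-labelled array and 3.46 on the control-labelled array. HSPB9, a testis member, read 4.11 on the ORF-labelled array, 3.13 on the shRNA-labelled array and 2.80 on the control-labelled array. The highest of these readings, 4.11, is a linear signal of 17.3.

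**Figure D3:**
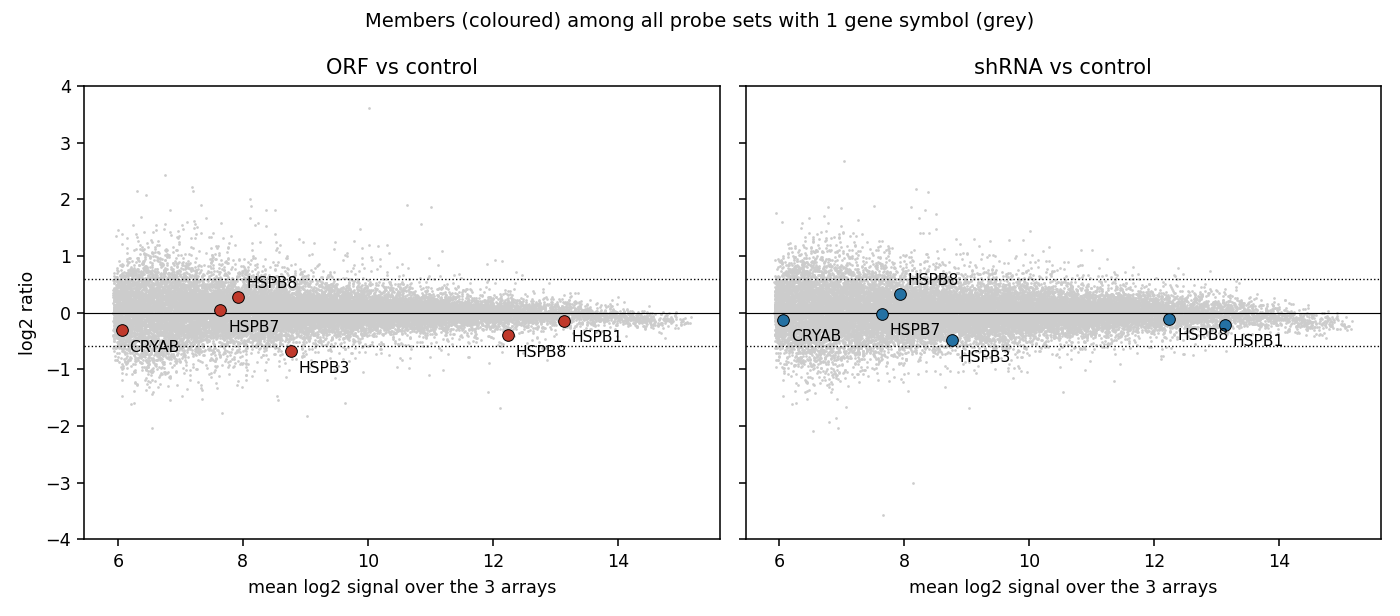
Log2 ratio (vertical axis) against mean log2 signal over the 3 arrays (horizontal axis) for all probe sets with 1 gene symbol and a mean at or above the floor (grey) and for the 6 member probe sets above the floor (coloured), for ORF against control (left) and shRNA against control (right). Dotted lines mark 1.5-fold; HSPB3 (-0.68) and the upper HSPB8 probe set (-0.40) lie at the lower edge of the grey cloud at their signals for ORF against control.

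The cells were checked against markers of their label and of tissues that use these proteins. Of 9 hepatocyte and HepG2 markers measured, 1 had a mean above the floor and 0 reached the 75th percentile; the highest reading was 6.51, of TF. Albumin (ALB) read 4.68 on the ORF-labelled array, 4.88 on the shRNA-labelled array and 4.27 on the control-labelled array. The defining secreted proteins of the labelled line were thus at or near background. Of 9 striated muscle markers, 2 (DES and ACTC1) had a mean above the floor, and the summed linear signal of all 9 was 521.3 on ORF, 617.6 on shRNA and 453.1 on control. DES read 6.78, 7.41 and 7.08 in that order of arrays, and ACTC1 read 7.89, 8.27 and 7.69. The myogenic factors MYOD1 and MYOG were at most 3.50 and 3.34. Of 9 lens markers 3 had a mean above the floor (sums of 338.7, 421.0 and 416.3), of 5 germ line markers 0, of 5 smooth muscle markers 3 (sums of 1206, 1662 and 1498) and of 4 leukocyte markers 0. The smooth muscle marker TAGLN read 9.44 on ORF, 10.24 on shRNA and 10.04 on control. It was past 1.5-fold lower on ORF than on control (log2 ratio -0.60, noise SD 0.152), and both its other probe sets had the same sign. Its ratio of ORF to shRNA was -0.80, with the same sign in 1 of the 2 others. For shRNA against control TAGLN stood at 0.20 (noise SD 0.215), where HSPB3 stood at -0.49. SMTN went the other way for ORF against control (0.35, noise SD 0.258), with the same sign in 1 of its 2 other probe sets. ACTA2 (-0.24), DES (-0.30), ACTC1 (0.19) and ACTA1 (0.22) lay within their noise SDs in that comparison. The part of muscle markers in the HSPB3 ratio was not tested. In RNA of whole cultures, fewer cells of a type and less RNA per cell cannot be told apart. The signal of the 3′ over the 5′ ACTB probe set, a sign of RNA quality, was 2.40 on ORF, 2.23 on shRNA and 2.70 on control, and that of GAPDH was 0.939, 0.900 and 0.930 in that order. The part of RNA quality in the ratios was not tested.

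Genes that regulate, assist or are bound by small heat shock proteins were listed by role, as 42 names in 6 lists. IFT25 and HSPB11, both listed, name the same gene. Of the 42 names, 32 had a probe set with 1 symbol and 30 were above the floor, each taken by its brightest probe set. For ORF against control 2 of the 30 were past 1.5-fold lower and 0 higher, while 3.11% of 12375 genes were higher and 2.88% lower. For shRNA against control 1 was higher and 1 lower, where 3.66% of 12445 genes were higher and 3.36% lower. For ORF against shRNA 0 were higher and 1 lower, where 2.69% of 12394 genes were higher and 2.74% lower. The medians over the 30 genes were -0.09, -0.03 and -0.04 in the same order of comparisons.

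Both measured heat shock factors were above the floor. HSF1, the main activator of heat shock genes, read 8.87 on the ORF-labelled array, 8.79 on the shRNA-labelled array and 8.51 on the control-labelled array. Its ratios to control were 0.36 for ORF (noise SD 0.238) and 0.28 for shRNA (noise SD 0.259), with the same sign in its other probe set. HSF4, the lens factor, read 6.44 on ORF, 6.74 on shRNA and 7.32 on control. ORF was past 1.5-fold lower than control (log2 ratio -0.88, noise SD 0.431). HSF4 had no second probe set with 1 symbol to set beside this one.

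Of the 10 measured chaperone partners 0 were past 1.5-fold in any comparison. STUB1, a ubiquitin ligase that works with HSP70, read 13.50 on the ORF-labelled array, 13.69 on the shRNA-labelled array and 13.82 on the control-labelled array. Its ratio of ORF to control was -0.31 (noise SD 0.080), with the same sign in both other probe sets. BAG3, the partner of HSPB8, read 12.05 for ORF, 12.30 for shRNA and 12.03 for control. BAG3 was thus highest on shRNA (ratio to control 0.27, noise SD 0.139), while the brighter HSPB8 probe set was highest on control. On ORF, BAG3 differed from control by 0.02, less than its noise SD of 0.099. BAG1, a nucleotide exchange factor of HSP70, had ratios to control of -0.11 for ORF (noise SD 0.099) and -0.31 for shRNA (noise SD 0.139). Both its other probe sets had the same sign. The muscle protein SYNPO2 had ratios of -0.20 and -0.31, within noise SDs of 0.431 and 0.445. DNAJB1, HSPH1, HSPA5, HSP90AA1 and HSP90AB1 all lay between -0.14 and 0.06 in the comparisons with control. The ratios of HSP90AB1 to control, -0.13 and -0.14, had the same sign in 0 of its 2 other probe sets. DNAJA1 had a ratio of ORF to control of 0.13 (noise SD 0.080), a sign that its other probe set did not share.

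Among the kinases and the phosphatase that act on HSPB1, 1 of 6 was past 1.5-fold. MAPKAPK2 read 10.36 on the ORF-labelled array, 10.53 on the shRNA-labelled array and 10.48 on the control-labelled array, with ratios to control of -0.11 and 0.06, inside the noise SDs of 0.123 and 0.182. PRKD1 (protein kinase D1) was higher for shRNA against control (0.73, noise SD 0.542), with a control signal of 5.43 below the floor. No other probe set of PRKD1 was above the floor. MAPKAPK5 differed by 0.32 between ORF and shRNA (noise SD 0.171), and PRKCD had a ratio of ORF to control of -0.30 (noise SD 0.281).

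Proteins related to the family by name or binding did not pass 1.5-fold. IFT25, an intraflagellar transport protein that also carries the name HSPB11, read 13.50, 13.55 and 13.51 for ORF, shRNA and control. HSPBAP1, which binds HSPB1, read 9.32 for ORF, 8.88 for shRNA and 9.09 for control, a log2 ratio of ORF to shRNA of 0.44 (noise SD 0.222). ODF1, a sperm tail protein also counted as a small heat shock protein, was below the floor.

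Of 7 measured cytoskeletal clients, 6 were above the floor. KRT8, a keratin of simple epithelia, read 12.50 on the ORF-labelled array, 12.76 on the shRNA-labelled array and 13.34 on the control-labelled array. Its ratio of ORF to control was -0.83 (noise SD 0.080), past 1.5-fold, and that of shRNA to control was -0.58 (noise SD 0.117), just short of it. Its partner KRT18 had ratios of -0.28 (noise SD 0.080) and -0.37 (noise SD 0.117). TUBA1A was lower for shRNA against control (-0.73, noise SD 0.307), and the muscle filament protein DES was lower for ORF against shRNA (-0.63, noise SD 0.383). KRT8, KRT18 and TUBA1A had no second probe set with 1 symbol, and DES had no second one above the floor. Their ratios could thus not be set beside those of another probe set. VIM and ACTB had ratios of ORF to control of 0.003 and -0.18, each with a noise SD of 0.080. That of ACTB had the same sign in 4 of its 5 other probe sets. Of the 4 measured apoptosis partners 0 were past 1.5-fold. The largest ratios were 0.40 for AKT1 in shRNA against control (noise SD 0.215) and 0.38 for BAX in ORF against shRNA (noise SD 0.222).

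**Figure D4:**
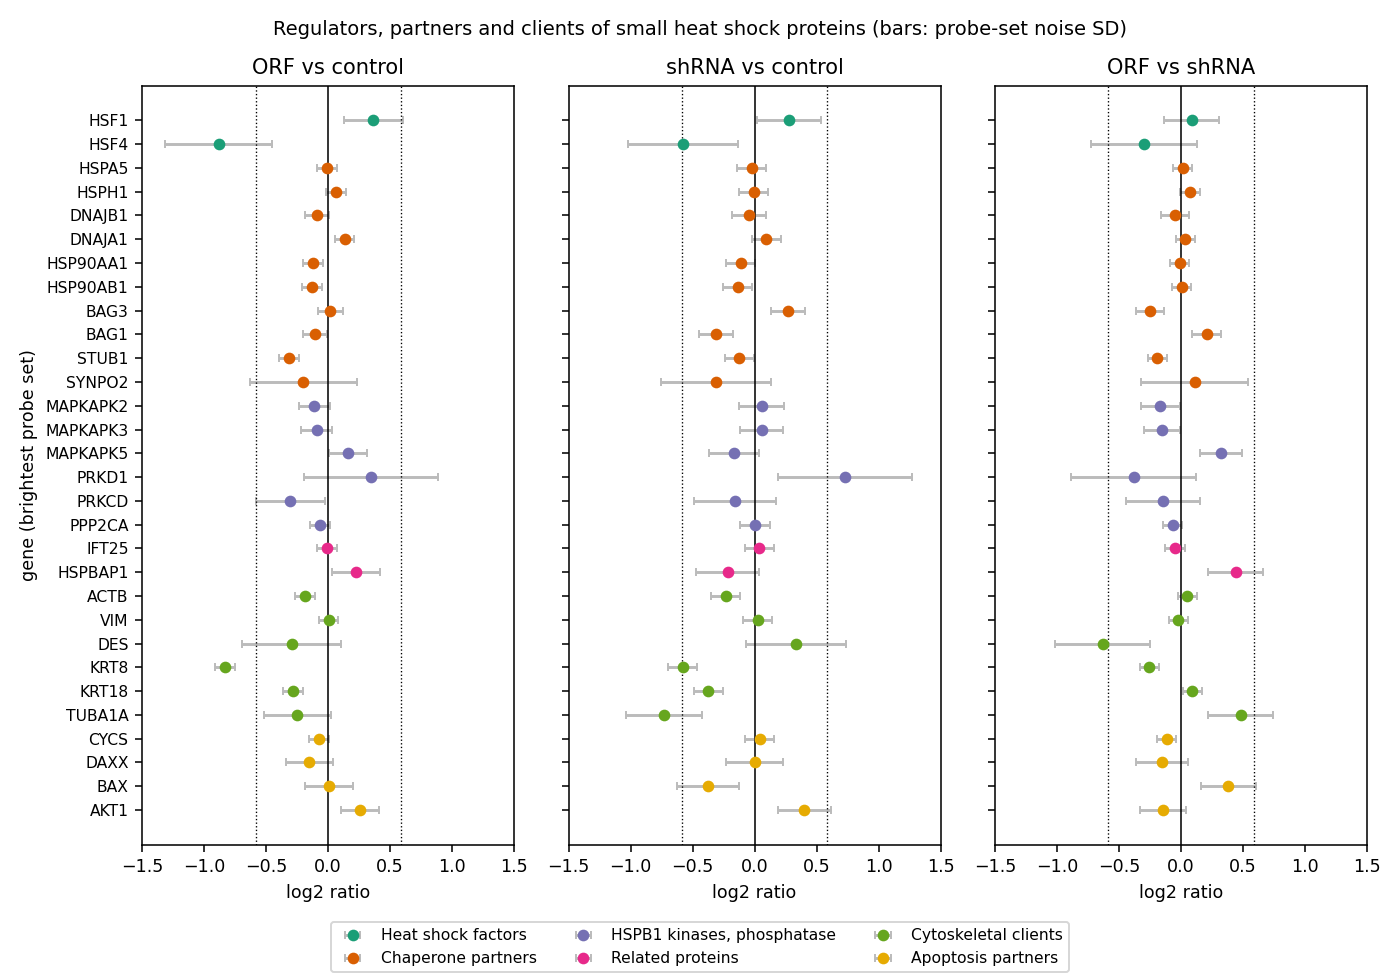
Log2 ratio (horizontal axis) of the 30 listed regulators, partners and clients above the floor (rows, coloured by list) in the 3 comparisons, 1 panel each, with bars of 1 probe-set noise SD to each side and dotted lines at 1.5-fold. HSF4 (-0.88) and KRT8 (-0.83) lie beyond the line for ORF against control, PRKD1 (0.73) and TUBA1A (-0.73) for shRNA against control, and DES (-0.63) for ORF against shRNA.

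For the 3 members whose mean signal reached the 75th percentile, genes of like pattern were sought among 7849 genes of such mean signal, by Euclidean distance over the log2 ratios of ORF and shRNA to control. HSPB1 had 779 genes within a distance of 0.1, and the nearest were ETFB, PUSL1 and PHIP (distances 0.0032, 0.0040 and 0.0047). HSPB8 had 64, the nearest being LUZP1, EFEMP1 and SPTY2D1 (0.020, 0.022 and 0.031). HSPB3 had 5, with PLCD3, CLTRN and KCNQ1 nearest (0.023, 0.041 and 0.050). Over 3 arrays such a pattern holds only 2 differences, and the number of near genes falls as the ratios of a member lie farther from 0. A distance of 0.1 is also smaller than the noise SDs of HSPB3.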

How the data were processed

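The file holds 54675 probe sets on 3 arrays as log2 signals that the authors deposited; MAS5 is named in the submitters' processing notes, with no version. The log2 scale was read from the values: the 2% trimmed mean of the linear signals was 500.1 on each array. Total RNA was amplified from the 3′ end and biotin-labelled, per the labels' protocols. GEO's platform annotation named the probe sets; 41097 had 1 symbol, 1801 several and 11777 none, and those with several or none were left out.

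Arrays were scaled to equal trimmed means, and signals below the pooled median were set to it before log2 ratios, which understates differences of weak genes. Ratios compared ORF with control, shRNA with control and ORF with shRNA, with samples grouped by the transfection label. There is no test and no p-value, because each group has 1 array, which limits the precision. The noise SD is the root mean square difference of the log2 ratios of same-gene probe sets, divided by the square root of 2, in 20 bins of mean signal. Members, lists and thresholds were chosen with earlier results of these data known. Named genes were all members, up to 4 per role list with the largest ratios above the floor, MAPKAPK2, HSF1 and BAG3, and the 3 nearest patterns per bright member; others named were chosen after their values were seen. Procedures were tested on simulated data. Python 3.11.15, numpy 2.4.6, pandas 2.3.3, statsmodels 0.14.6 and matplotlib 3.10.9 were used. Promoters came from RefSeq.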

Additional observations from a re-analysis of the deposited data

How the results depend on the processing

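No paired analysis was possible because each group has 1 array. The 6 alternatives run were values as deposited, quantile normalization, loess centring, equal medians above the floor, no floor, and a floor at the 75th percentile. Only quantile normalization, loess centring and equal medians could move the log2 ratio of HSPB1 by more than a trace. Its signals were far above both floors, and the deposited arrays already had equal trimmed means. Under those scalings the ratio of HSPB1 stayed within its noise SD of the value above. It ranged from -0.17 to -0.09 for ORF against control, from -0.22 to -0.17 for shRNA against control and from 0.05 to 0.08 for ORF against shRNA. The count of member probe sets past 1.5-fold moved with the floor, the threshold and the choice of probe sets. For ORF against control it was 1; it became 6 with no floor (3 higher and 3 lower), 0 with the floor at the 75th percentile, 2 at a log2 threshold of 0.32, 0 at 2-fold, and 0 without probe sets ending in _x_at or _s_at, which leaves out HSPB3. For shRNA against control it was 0, and became 4 with no floor and 1 at a log2 threshold of 0.32. For ORF against shRNA it was 0, and became 4 with no floor. Without a floor the added calls were all probe sets with signals below the median of all probe sets on every array. The scaling alternatives (values as deposited, quantile normalization, loess centring, equal medians) changed 0 of these counts. Of 198 ratios of the other members under the alternatives, 13 moved by more than the noise SD, and all 13 did so with no floor. They belong to probe sets below the floor on every array, for which the noise SD of the dimmest bin (0.544, 0.542 and 0.503 for the 3 comparisons in the order above) stood in. Signal limits CRYAB, whose noise SD was at least 0.503, and gives no ratio for HSPB2, HSPB6, CRYAA and HSPB9.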
